A study of Brachypodium distachyon with 6 samples.

Results

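Of the 5 B. distachyon identifiers taken as high-affinity nitrate transporters of the NRT2 family, 1 gene, Bradi2g47640, has a row among the 19538 genes of the deposited root table. The members were chosen by identifier, and most of them are neighbours on chromosome 3. The other 4, Bradi3g01250, Bradi3g01270, Bradi3g01277 and Bradi3g01290, were not analysed here, and no level, limit or direction is given for them. The results below are therefore those of 1 gene and not of the family. The table pairs no identifier with a name, and none of its identifiers matched the gene reference used here, so the family name of Bradi2g47640 rests on the list of identifiers.

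All plants were of the inbred line Bd21, the reference line of this model grass. Seedlings were raised on half-strength Murashige and Skoog agar, a medium that supplies nitrate and ammonium, with 1% sucrose. At an age of 2 weeks the seedlings of a box were split, and in 1 part the shoots were cut to a short stub (pruned) while the other part was left uncut (intact). Root RNA was taken 2 days later and sequenced as 3 intact and 3 pruned libraries. The labels name the replicates as separate samples, and the methods of the study call them biological. The libraries hold 17278649 to 28420464 reads counted on the listed genes. Both ends of the fragments were used for the intact libraries and pruned replicate 1, and only the first read (R1) for pruned replicates 2 and 3, so read layout moves with the treatment. The labelled tissue was not checked against marker genes, because no marker could be assigned to an identifier.

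Most NRT2 proteins sit in the plasma membrane and carry nitrate into the cell together with protons. They serve the uptake of nitrate where its concentration outside the root is low, and in Arabidopsis most of them work only with a small partner protein, NAR2. In Arabidopsis roots the main NRT2 transcripts are known to be induced by nitrate and by sugars and to be repressed by ammonium and glutamine. Other members can differ, and whether any of this holds for Bradi2g47640 was not tested. Nitrate, ammonium, sugars and nitrate uptake are not part of the data described here.

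Expression of Bradi2g47640 was lower in pruned roots than in intact roots. RPM are reads of the gene per 1000000 reads counted on the listed genes. The intact libraries had 1.46, 1.54 and 1.49 RPM in replicates 1, 2 and 3. The pruned libraries had 0.405, 0.528 and 0.339 RPM in the same order. Every pruned library lay below every intact library, and the intact libraries were closer to each other than the pruned ones. Neither spread exceeded counting error (chi-square 0.05 in intact and 1.17 in pruned libraries, 2 degrees of freedom). The closeness of the intact values is therefore no measure of precision. The mean was 1.496 ± 0.0443 RPM (SD, n = 3) in intact roots and 0.424 ± 0.0956 RPM (SD, n = 3) in pruned roots, so that 28.4% of the intact level was left. After quantile normalization of the libraries the ratio of mean levels was 0.182 in place of 0.284. In RNA of whole roots, fewer cells that express a gene and less RNA of it per cell cannot be told apart.

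**Figure D1:**
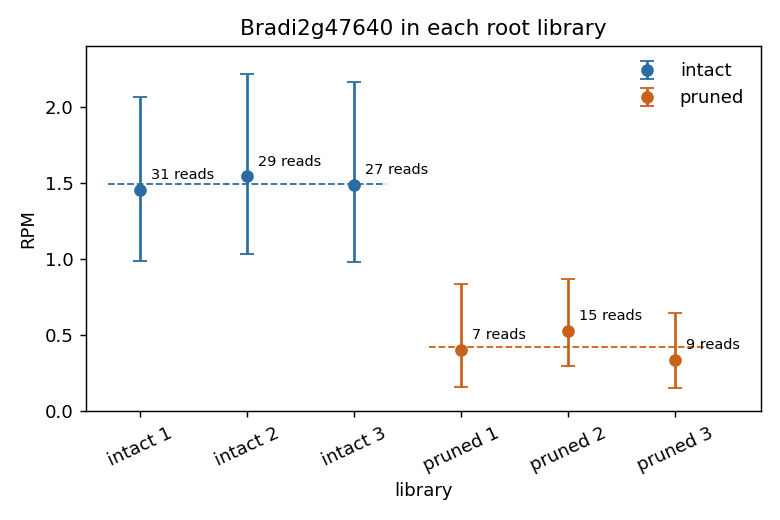
Level of Bradi2g47640 in RPM (vertical axis) in each of the 6 root libraries (horizontal axis), with the reads behind each point. Bars are exact Poisson 95% intervals that cover counting error only, and dashed lines are the group means of 1.496 and 0.424 RPM. All 3 pruned libraries lie below all 3 intact libraries, and no pruned interval reaches an intact one.

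Presence in the table is itself linked to the level of the gene. Each of the 19538 listed genes reaches 1 RPM in at least 3 libraries, and Bradi2g47640 does so in the 3 intact libraries alone. With its levels in pruned roots below 1 RPM, the gene could be listed only by being high enough in intact roots. Given these pruned levels, a higher level in intact roots was a condition of being listed, so the direction of its difference and the tests that follow describe these libraries and are no independent support for a fall. In all, 68 genes were at 1 RPM or above in every intact library and below it in every pruned library, and they are lower in pruned roots by this definition. The median ratio of mean RPM, pruned over intact, was 0.407 for these genes, and that of Bradi2g47640 was 0.284. A lower ratio was found for 20 of the 68 genes. As a description, 41.2% of them were lower by at least 2-fold with an adjusted p of at most 0.05 in the limma test described below. In the opposite class, 186 genes were at 1 RPM or above in every pruned and in no intact library.

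**Figure D2:**
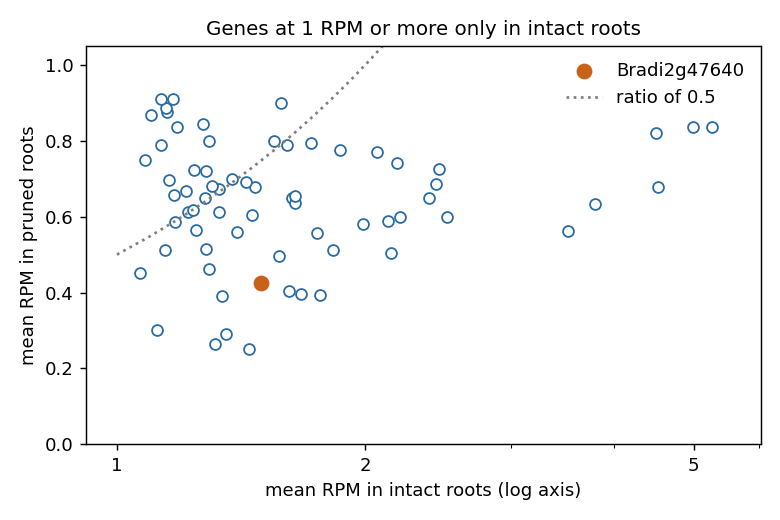
Mean RPM in pruned roots (vertical axis) against mean RPM in intact roots (horizontal log axis) for the 68 genes that reach 1 RPM in every intact and in no pruned library. The dotted line marks a ratio of 0.5, and Bradi2g47640 lies below it at 1.496 RPM in intact and 0.424 RPM in pruned roots.

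These levels rest on few reads. Whole reads were recovered from RPM, and Bradi2g47640 had 31, 29 and 27 reads in intact replicates 1, 2 and 3. It had 7, 15 and 9 reads in pruned replicates 1, 2 and 3, although 2 of these libraries are the deepest of the series. The exact Poisson 95% intervals of the intact libraries began at 0.980 RPM or higher, and those of the pruned libraries ended at 0.871 RPM or lower. The intervals of the groups therefore did not overlap. Summed over replicates, 87 reads in intact and 31 reads in pruned libraries gave a rate 3.48-fold higher in intact roots, with an exact 95% interval of 2.29 to 5.43. These intervals cover counting error only, not the variation between plants, and they do not allow for the condition on listing.

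With limma on log2(RPM + 0.5), the log2 fold change of Bradi2g47640 (pruned over intact) was -1.12 with a standard error of 0.19 (adjusted p = 3.0e-05 over all 19538 genes). Genes that changed 2-fold or more with an adjusted p not above 0.05 were taken as differentially expressed genes (DEGs), and Bradi2g47640 passed both limits, with a direction set by the condition on listing. Of all genes, 1.72% were DEGs with lower expression in pruned roots, and 20.2% were lower by the adjusted p alone. In all, 265 of the 19538 genes had a lower log2 fold change. The groups of libraries did not overlap, with pruned roots lower, for 22.7% of all genes. An exact permutation test of this gene gave p = 0.10 (two-sided), the lowest value that 3 libraries against 3 allow. With all pruned levels below 1 RPM, the condition on listing fixed this p in advance, so it carries no support.

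The size of the fall depends on how low values are treated. The pseudocount of 0.5 is larger than the mean RPM in pruned roots and draws the fold change towards 0. The ratio of mean RPM corresponds to a log2 fold change of -1.82, and the quasi-likelihood test of edgeR on the recovered reads gave -1.83 (adjusted p = 9.2e-06), where 2.27% of all genes were DEGs with lower expression. With a pseudocount of 1 the log2 fold change was -0.81, and the gene no longer reached 2-fold (adjusted p = 3.7e-05). Of the alternatives, 18 have a test of their own. Their log2 fold changes ran from -1.85 to -0.81 and their adjusted p-values from 8.7e-09 to 0.00174. The filter settings among them leave the same 19538 genes and so could not change a value.

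**Figure D3:**
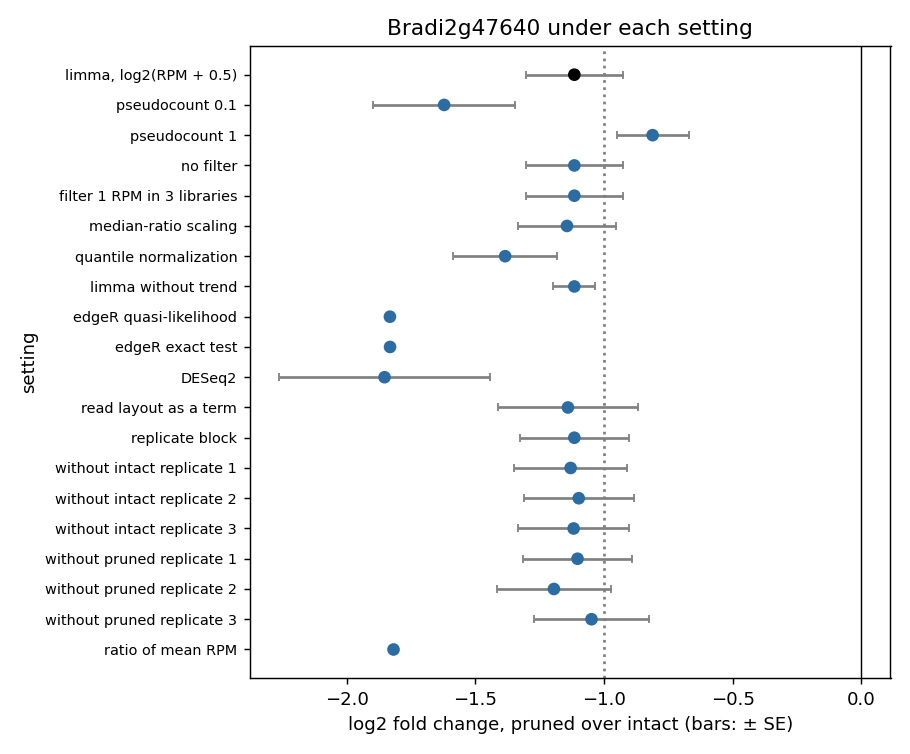
Log2 fold change of Bradi2g47640, pruned over intact (horizontal axis), under each setting (vertical axis). Bars are ± SE where the tool gives one, and the dotted line is 2-fold. All values lie below 0, from -1.85 with DESeq2 to -0.81 with a pseudocount of 1, and the latter is the value on the other side of the 2-fold line.

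With all pruned levels below 1 RPM, the condition on listing places each pruned library below each intact one. The ratios of single libraries therefore describe the size of the difference only. The mean of intact roots was 3.69 times the level of pruned replicate 1, 2.83 times that of pruned replicate 2 and 4.41 times that of pruned replicate 3. Pruned replicate 1 is the only paired-end pruned library, so its value compares libraries of the same read layout. With read layout as a term in limma, where the pruned effect rests on this library, the log2 fold change was -1.14 with a standard error of 0.27 (adjusted p = 0.00174). This p assumes that the lone library varies like the libraries of the other groups. Leaving out each library in turn gave -1.19 to -1.05.

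No listed gene next to Bradi2g47640 had a fall of this size, which only 265 of all 19538 genes exceeded. The neighbours are not bound to 1 direction by the condition on listing as Bradi2g47640 is, and the difference was not tested. Locus numbers of B. distachyon follow the order of genes along a chromosome, and 18 listed genes lie between Bradi2g47500 and Bradi2g47780 beside Bradi2g47640. Their log2 fold changes had a median of 0.05 and lay between -0.26 and 0.76. None of the 18 was a DEG, where 4.26% of all genes were DEGs and 1.72% were DEGs with lower expression. At these shares, no DEG among 18 genes is unremarkable. By the adjusted p alone 7 were higher and 2 were lower, together 9 of 18. Of all genes, 50.3% passed in either direction, 30.1% as higher and 20.2% as lower. The nearest listed genes were Bradi2g47620, with a log2 fold change of -0.12 (adjusted p = 0.0819), and Bradi2g47650, with -0.07 (adjusted p = 0.478). The lowest value in this window was that of Bradi2g47780, which fell from 11.5 ± 0.737 to 9.60 ± 1.34 RPM (adjusted p = 0.0353). The largest rise was that of Bradi2g47540, from 3.62 ± 0.239 to 6.45 ± 0.183 RPM (adjusted p = 8.9e-06).

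The genes that flank the chromosome 3 identifiers all changed by less than 2-fold. From Bradi3g01100 to Bradi3g01450 the table lists 21 genes. Their log2 fold changes lay between -0.47 and 0.51, and the median of 0.04 was also that of all genes. None of the 21 was a DEG, where 4.26% of all genes were. By the adjusted p alone 5 were higher and 2 were lower, against 30.1% and 20.2% of all genes. Bradi3g01230, the last listed gene before the identifiers that were not analysed, had 4.98, 5.69 and 5.84 RPM in intact and 6.54, 5.56 and 6.15 RPM in pruned roots, with overlapping groups (adjusted p = 0.356). Bradi3g01297, the first listed gene after them, had 69.5, 61.5 and 68.5 RPM in intact and 68.8, 62.0 and 64.4 RPM in pruned roots, also with overlap (adjusted p = 0.695). Bradi3g01116 had the largest fall of this window, from 16.2 ± 1.53 to 11.6 ± 1.55 RPM (adjusted p = 2.9e-04). Bradi3g01350 had the largest rise, from 4.33 ± 0.428 to 6.37 ± 0.854 RPM (adjusted p = 0.00152).

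**Figure D4:**
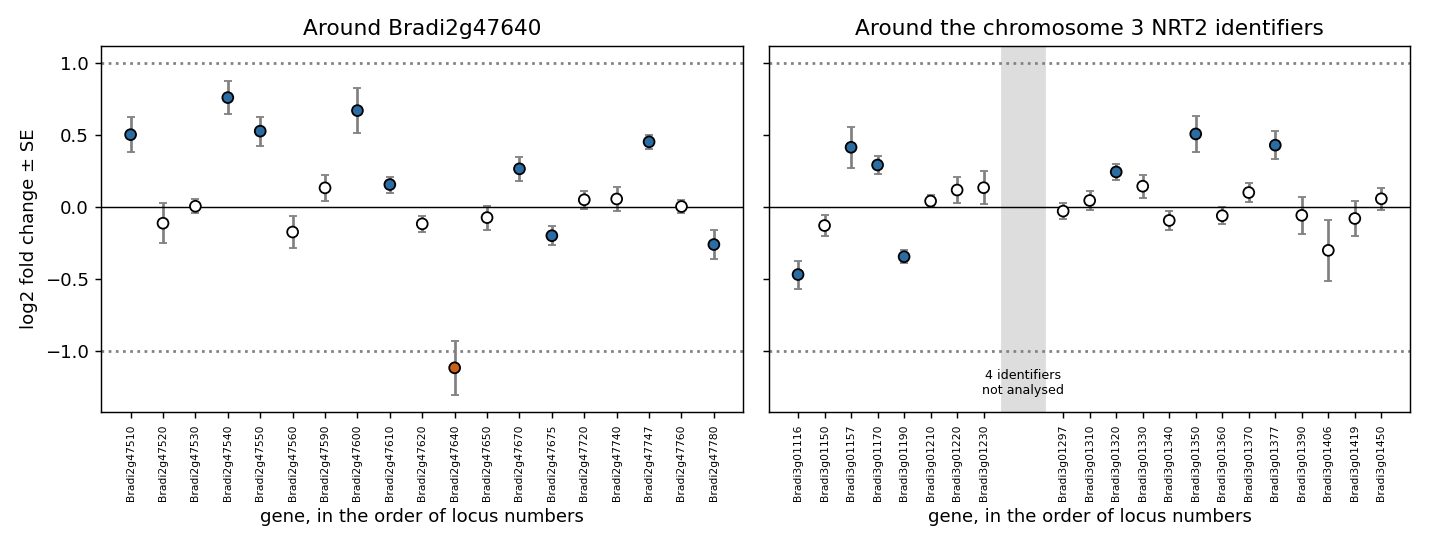
Log2 fold change ± SE, pruned over intact (vertical axis), of listed genes in the order of their locus numbers (horizontal axis) around Bradi2g47640 (left, orange) and around the chromosome 3 identifiers (right, grey band for the 4 not analysed). Blue points have an adjusted p of at most 0.05, white points do not, and dotted lines mark 2-fold. Bradi2g47640 lies at -1.12 and its 18 neighbours lie between -0.26 and 0.76.

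The supplementary material of the study places 3 genes under the term nitrate transmembrane transporter activity, and Bradi2g47640 is not one of them. The study took the genes of this term from its own DEGs of the same libraries, so their changes are no independent evidence. Bradi3g33030 had 33.4, 32.9 and 35.2 RPM in intact and 21.7, 17.0 and 18.6 RPM in pruned roots. All pruned libraries were below all intact libraries, and the gene fell by 0.81 ± 0.08 (SE) on the log2 scale (adjusted p = 5.1e-09). Bradi3g53380 had 2.44, 1.92 and 3.47 RPM in intact and 1.62, 1.20 and 1.21 RPM in pruned roots. It fell without overlap of the groups but with a wide spread among intact libraries (log2 fold change -0.73 ± 0.18 (SE), adjusted p = 0.00175). With read layout as a term it was -0.52 and did not pass (adjusted p = 0.108). Bradi2g50580 had 2.25, 2.08 and 2.20 RPM in intact and 3.59, 3.24 and 4.64 RPM in pruned roots. This gene rose by 0.68 ± 0.15 (SE) on the log2 scale, with no overlap of the groups (adjusted p = 5.0e-04). Separate groups were common, since of all 19538 genes only 8588 had groups that overlapped. By the adjusted p alone, 50.3% of all genes passed.

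None of these 3 genes reached 2-fold with limma, where 4.26% of all genes were DEGs in either direction. Bradi2g47640 reached 2-fold, with a direction set by the condition on listing. At a limit of 1.5-fold all 3 genes passed. For its own DEGs the study names 1.5-fold in its methods and 2-fold in its results. With edgeR and DESeq2 on the recovered reads, Bradi3g53380 reached 2-fold. The difference in response between Bradi2g47640 and these genes was not tested. Of the 3 genes, 2 fell as Bradi2g47640 did and 1 rose, so the nitrate transporter genes described here did not all move in one direction.

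**Figure D5:**
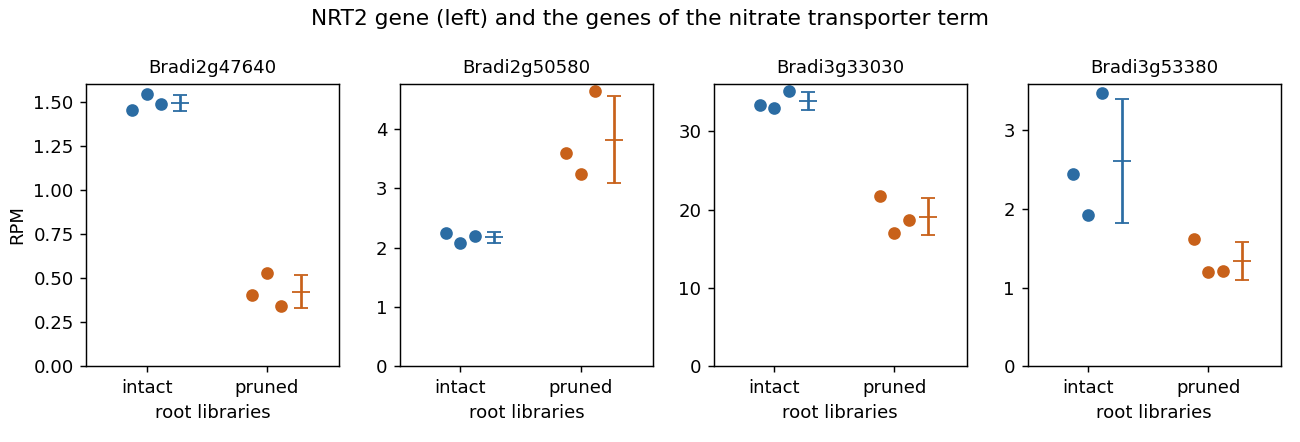
RPM (vertical axes, each from 0) in the 3 intact and 3 pruned libraries for Bradi2g47640 and the 3 genes of the nitrate transporter term. Points are libraries, and the bars beside them are the mean ± SD. Bradi2g47640, Bradi3g33030 and Bradi3g53380 lie lower in every pruned library, and Bradi2g50580 lies higher.

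The pattern over the 6 libraries most like that of Bradi2g47640, by Pearson's r on log2(RPM + 0.5) among 19376 other genes with a mean of at least 1 RPM, was that of Bradi3g50490 (r = 0.9996). Bradi2g37340 (r = 0.9994) and Bradi2g25376 (r = 0.9991) came next. Bradi3g50490 had 19.5, 20.1 and 19.9 RPM in intact and 11.2, 12.3 and 10.8 RPM in pruned roots. As in Bradi2g47640, intact replicate 1 was the lowest intact library, pruned replicate 2 the highest pruned and pruned replicate 3 the lowest. This shared order follows from choosing the gene by its r. For Bradi2g47640 the spread within groups did not exceed counting error, so its order carries no weight. The log2 fold change of Bradi3g50490, -0.77, was smaller in size (adjusted p = 2.1e-08). A value of r of at least 0.95 was found for 1437 genes, and the points share the libraries and their 2 groups, so r reflects mostly the difference between groups and carries no test.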

How the data were processed

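Root RNA of 3 intact and 3 pruned samples was measured by RNAseq. For the deposited table the authors cleaned reads of 150 nt (cutadapt, SolexaQA), aligned them using TopHat to the B. distachyon genome of phytozome (release 11) and kept reads with a single position for counting on genes. The labels also name HTSeq. The strand setting and the name of the assembly behind this release are not given in the sources used here. The authors deposited RPM, which sum to 1000000 in each library, and 0 columns were left out. Unique mapping can remove reads from near-identical gene copies, so the RPM of a gene family are uncertain to this extent. All values are whole multiples of 1 step per library (within 0.01 of a read for 100% of genes), and division by the step gave the reads. For pruned replicates 2 and 3, whose smallest values are 4 and 2 reads, the step was found by trying divisors.

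The test was limma (version 3.58.1, R 4.3.3; eBayes with a trend) on log2(RPM + 0.5), two-sided, with Benjamini-Hochberg adjustment over the 19538 genes with at least 0.5 RPM in at least 3 libraries. As alternatives, recovered reads were tested with edgeR 4.0.16 and DESeq2 1.42.0, and limma was run without its trend, after quantile normalization or median-ratio scaling, with pseudocounts of 0.1 or 1, unfiltered, filtered at 1 RPM, with read layout or replicate number as a term, with each library left out and with other fold thresholds. The ratio of mean RPM, the chromosome 2 window and the classes of genes at 1 RPM in only 1 group were added after the data were seen. The limma test at its main settings, the exact and quasi-likelihood tests of edgeR and DESeq2 were tried on simulated data. The other settings, the permutation test and the count intervals were not. Named genes were the NRT2 members, the short nitrate term and the 3 genes of highest likeness, and the extremes and nearest genes of the windows were chosen after their values were seen. The members and lists were chosen with earlier results of these data known. A list of NRT1/PTR genes was planned but not used, because for 12 of its 15 pairs of name and identifier in the study's supplement the gene ID lies on another chromosome in the gene reference (RefSeq, B. distachyon v3.0) than the identifier. Other lists of nitrogen genes and tissue markers needed names from the gene reference. Because no identifier matched it, they were not analysed here. Other steps used Python 3.11.15 with scipy 1.17.1.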

Additional observations from a re-analysis of the deposited data

How the results depend on the processing

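Bradi2g47640 could be listed only through its level in intact roots, so its direction under the alternatives is no sign of stability. It had an adjusted p of at most 0.05 in the 18 alternatives with a test of their own, of which 2 filter settings leave the same genes. It lost the 2-fold call with a pseudocount of 1 (log2 fold change -0.81), where 0 NRT2 members in place of 1 were DEGs. The ratio of mean RPM, 0.284, became 0.182 after quantile normalization and was 0.249 to 0.312 with 1 library left out. The depth limits how well its size is known, since the pruned value rests on 31 reads.

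Among the 3 genes of the nitrate term, the 0 DEGs became 1 with DESeq2 or either test of edgeR (exact and quasi-likelihood), and 3 at 1.5-fold or without a fold threshold. By the adjusted p alone, 7 of 21 genes passed around the chromosome 3 identifiers and 9 of 18 around Bradi2g47640, where 2 passed at 1.5-fold. Over all genes the 833 DEGs became 2557 at 1.5-fold and 9830 without a fold threshold.

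Intact and pruned seedlings shared boxes, but whether the same replicate number means the same box is not known. Deviations of same-numbered intact and pruned libraries from their group means correlated at -0.03, 0.20 and 0.08 across genes. Those of differently numbered libraries correlated at -0.21 to 0.12. With 3 libraries per group, these correlations cannot decide whether the libraries are paired. With the replicate block the log2 fold change of Bradi2g47640 was -1.12, which a block cannot change in this balanced design. Its standard error was 0.21, against 0.19 without the block. The lower adjusted p of limma (2.8e-06, against 3.0e-05 without the block) therefore reflects no closer estimate. With the block, 836 genes were DEGs.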
